A study of Mus musculus with 2 samples.

Results

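The replication-linked histone genes were described in single splenic regulatory T cells (Tregs) of 7-day-old C57BL/6J mice. The members were all genes whose symbol begins with Hist1h, Hist2h, Hist3h or Hist4h, which made 67 of the 32285 genes in the feature table. They fell into 6 H1, 18 H2A, 18 H2B, 12 H3 and 13 H4 genes. YFP+7AAD- cells, that is, cells with the YFP of the Foxp3-Cre allele that exclude the dead-cell dye 7AAD, were sorted from the spleens (the study's methods add a CD4+ gate) of WT mice, which the study defines as Foxp3-Cre mice with intact Zfp335, and of KO mice (Zfp335fl/flFoxp3-Cre). Both genotypes thus carry the Cre that the Foxp3 locus drives, and the deletion is limited to cells that have expressed Foxp3. Each genotype is 1 library of 10x single-cell counts, and the number of mice behind a library is not given in the sources used here, so no difference between the genotypes has a replicate check and genotype and library cannot be told apart.

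The WT library held 14524 barcodes, of which 8053 were kept (300 or more genes detected, mitochondrial share no higher than 5%), and the KO library held 18134, of which 13767 passed. The median depth of the kept barcodes was 5061 UMIs in WT and 2713 UMIs in KO. The targeted gene Zfp335 stood at 8.03 CPM (CPM, the usual scaling of the UMIs of a gene to the summed UMIs of the same barcodes) in WT and at 1.01 CPM in KO. Of the kept barcodes, 7497 in WT (93.1%) and 12732 in KO (92.5%) fell in clusters with T cell markers, called T lineage here, and Foxp3 was at 40.7 and 44.5 CPM in them. The other 556 and 1035 barcodes were erythroid-like, myeloid progenitor-like, neutrophil-like or B lineage-like, which are cells that the sort should have removed. The libraries shared 29 kept barcode sequences. T-lineage clusters 3, 6, 9 and 17 were shallow or carried haemoglobin, granule or complement transcripts of other cells. Their barcodes were unevenly spread, with 4260 KO against 93 WT barcodes in cluster 3 and 892 WT against 82 KO in cluster 6. The main sums over all members were therefore also taken without them. Those that moved are given both ways, in the text or with the other alternatives at the end. Ratios by histone class, member, locus and other gene list, and those of some cycle classes, were not taken without them.

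Histones package DNA. H2A, H2B, H3 and H4 form the core around which DNA is wound, and H1 binds the linker between cores. The replication-linked genes are switched on when a cell copies its DNA, through NPAT, and switched off when copying ends. Their mRNAs usually carry no poly(A) tail. They end instead just past a short stem-loop that SLBP binds, which U7 RNA and its partners LSM10, LSM11 and ZFP473 help to cut. Some of these genes can also make a longer, polyadenylated mRNA, in particular in cells that do not divide. The libraries were primed on poly(A), so the counts sample only those histone molecules that oligo-dT caught, and levels of different members are not compared with each other below.

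In GENCODE vM21 on GRCm38 (mm10), 54 members lay on chromosome 13, between 21715763 and 23934851. A further 10 lay on chromosome 3 between 96219865 and 96270132, 2 on chromosome 11 between 58948920 and 58956830, and 1, Hist4h4, on chromosome 6 from 136801553 to 136804415. A stem-loop was found in the annotated transcripts of 44 members in 6 forms. The form shown in capitals for Hist1h2ap occurred in 26 members, that of Hist1h4d in 7, that of Hist1h3c in 6 and that of Hist2h4 in 2. The stem-loops, in capitals with up to 5 flanking bases, are shown for the member with most UMIs in the H2A, H3 and H4 classes and for 4 members whose annotated transcript runs on far beyond the loop.
Hist1h2ap: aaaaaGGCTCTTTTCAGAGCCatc
Hist1h3c: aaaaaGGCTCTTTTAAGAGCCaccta
Hist1h4d: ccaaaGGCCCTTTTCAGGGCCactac
Hist3h2a: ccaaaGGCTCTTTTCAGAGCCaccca
Hist4h4: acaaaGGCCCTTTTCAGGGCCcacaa
Hist2h4: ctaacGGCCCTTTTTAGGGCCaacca
Hist1h2ac: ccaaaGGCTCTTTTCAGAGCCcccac
The Hist1h2ap transcript ended 3 bases past the loop, those of Hist1h3c and Hist1h4d 74 and 770 bases past it, and those of Hist3h2a, Hist4h4, Hist2h4 and Hist1h2ac 1643, 2445, 1257 and 2010 bases past it. For 23 members no loop of this form stood in the annotated transcript.

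A set of 4 short motifs was looked for on both strands of the RefSeq promoters (GRCm38.p6; 250 bases before to 50 after the start), which were at hand for 61 members as 62 promoters. CCAAT occurred in 53 of the 62 (85.5%) against 37.4% of all 32851 promoters. It was in all 6 H1, 17 H2A, 17 H2B and 10 H3 promoters but in 3 of 12 of the H4 class. The H1 box AAACACA was in 5 of 6 H1 promoters and in 7.18% of all promoters. The octamer ATTTGCAT was in 7 of 17 H2A and 7 of 17 H2B promoters and in 1.74% of all promoters, and TATAAA was in 35 of 62 member promoters (56.5%) against 13.6% of all. None of the 4 motifs contains another. Promoters of the H1 gene with most UMIs, of an H2B gene with 3 of the motifs and of the member with the lowest cycle response are printed with the motif letters in capitals; all run 5′ to 3′ on the gene's own strand.
Hist1h1b, chr13:21780576-21780875, minus strand: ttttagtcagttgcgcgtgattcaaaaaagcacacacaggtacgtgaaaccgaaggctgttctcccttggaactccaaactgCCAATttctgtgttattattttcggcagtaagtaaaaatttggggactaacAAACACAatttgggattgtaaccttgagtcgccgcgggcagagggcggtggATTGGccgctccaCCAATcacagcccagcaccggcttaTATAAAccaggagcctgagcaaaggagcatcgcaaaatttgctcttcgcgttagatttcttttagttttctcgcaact
Hist1h2bm, chr13:21721794-21722093, plus strand: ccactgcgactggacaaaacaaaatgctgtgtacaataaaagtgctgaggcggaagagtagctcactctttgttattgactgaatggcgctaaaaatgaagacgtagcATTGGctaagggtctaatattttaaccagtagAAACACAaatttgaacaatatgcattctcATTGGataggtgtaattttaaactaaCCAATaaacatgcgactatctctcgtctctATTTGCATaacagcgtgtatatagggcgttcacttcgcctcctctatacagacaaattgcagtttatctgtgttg
Hist3h2a, chr11:58954435-58954734, plus strand: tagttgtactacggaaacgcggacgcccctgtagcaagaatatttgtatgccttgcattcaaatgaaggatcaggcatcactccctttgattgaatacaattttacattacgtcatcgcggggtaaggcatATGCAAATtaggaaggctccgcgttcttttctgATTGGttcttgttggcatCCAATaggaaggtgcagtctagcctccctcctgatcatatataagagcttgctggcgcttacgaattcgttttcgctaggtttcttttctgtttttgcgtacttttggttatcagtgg
ATTGG and ATGCAAAT are CCAAT and ATTTGCAT read on the other strand. Hist3h2a thus held the octamer and CCAAT although its level did not follow the cycle, as given further on, and a match is a description of letters, not of a bound site.

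The question behind the genotype comparison was what loss of Zfp335 changes in neonatal Tregs. Histone UMIs made up 0.487% of all UMIs of the kept WT barcodes and 0.262% of those of the kept KO barcodes. In T-lineage barcodes the summed histone level was 4582 CPM in WT and 2523 CPM in KO, a KO to WT ratio of 0.551 (95% interval 0.547 to 0.554, exact conditional binomial). Intervals here and below cover counting error only, and over all kept barcodes the ratio was 0.537 (0.533 to 0.540). All 5 classes were lower in KO. The sum of the H1 genes fell furthest, from 1190 to 481 CPM (0.404; 0.398 to 0.410), which took it from 26.0% to 19.1% of the histone UMIs. H3 genes were at 394 CPM in WT and 212 CPM in KO (0.539), H4 genes at 362 and 211 CPM (0.585), H2A genes at 2303 and 1408 CPM (0.612) and H2B genes at 333 and 209 CPM (0.628). The interval of the H1 ratio did not meet that of any core class. Single genes held much of these sums, however. Hist1h1b held 30400 of the 57705 WT UMIs of H1 genes, and Hist1h2ap 68020 of the 111635 of H2A genes. In KO they held 9956 of 25041 and 50861 of 73261. The ratio of Hist1h1b alone was 0.305, below that of its class, and that of Hist1h2ap alone 0.697, above that of its class. Class ratios without these genes were not taken. The place of H1 below H2A is therefore that of the sums and is not shown for the other genes of these classes. Because the cells were counted as a mixture, fewer cycling cells and fewer histone transcripts per cycling cell cannot be told apart in these sums, so the cycle was taken into account next.

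Each T-lineage barcode with at least 1000 UMIs was thinned to 1000 UMIs, and was placed by whether it then held at least 5 UMIs of 42 S phase genes (such as Mcm2, Pcna and Tyms) and at least 5 UMIs of 44 G2/M genes (such as Mki67, Top2a and Ccnb1). No histone member was in either list. The class with both lists made up 7.92% of 6429 WT barcodes and 7.59% of 11719 KO barcodes, and S only 3.62% and 4.82%. G2/M only was 18.4% and 27.9%, and neither 70.0% and 59.7%. The KO shares rested in part on clusters 3 and 9. Cluster 3 gave 3609 of the KO barcodes, 61.0% of them outside the class with neither list, but 48 of the WT barcodes. Cluster 9 gave 592 KO barcodes, 55.1% of them outside that class, and 2 WT barcodes. The corresponding percentages were 11.6% in WT and 12.9% in KO in cluster 1, and 25.6% and 37.1% in cluster 7. Class shares without the shallow or mixed clusters were not taken. The classes are ranges of a score and not cell types, since 21.2% of the WT and 28.3% of the KO barcodes lay within 1 UMI of a limit. Their median depths before thinning also differed, at 13193 UMIs in WT and 4475 in KO for the class with both lists.

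Histone transcripts followed the cycle in both genotypes. Among WT T-lineage barcodes the summed level was 1068 CPM in the class with neither list, 3833 CPM in S only, 7137 CPM in G2/M only and 13287 CPM in the class with both lists. In KO it was 857, 1746, 4266 and 7605 CPM in the same order. S only over neither was thus 3.59-fold (3.51 to 3.67) in WT and 2.04-fold (1.98 to 2.10) in KO. Both lists over neither was 12.4-fold (12.3 to 12.6) and 8.88-fold (8.74 to 9.02). G2/M only over neither was 6.68-fold in WT and 4.98-fold in KO, above the S-only folds. The S list itself was 2.35-fold and 1.76-fold above neither in G2/M only. The S-only fold rested on the limit of the lists: with 3 UMIs in place of 5 it was 1.70 in WT and 1.29 in KO, and with 8 UMIs 4.69 and 2.59. The size of the gap between the libraries also depended on processing: both lists over neither was 12.5-fold in WT and 10.95-fold in KO without clusters 3, 6, 9 and 17, and 10.9-fold and 6.04-fold as the mean of single-barcode CPM. The H2A sum rose furthest with the cycle, 15.5-fold in WT and 10.7-fold in KO for both lists over neither. H1 genes rose 12.2-fold and 8.92-fold, H3 genes 11.4-fold and 8.27-fold, H2B genes 8.52-fold and 5.20-fold and H4 genes 6.51-fold and 5.29-fold. Hist1h2ap, which held most of the H2A UMIs, rose 17.6-fold and 12.2-fold. The H2A fold without it was not taken.

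**Figure D1:**
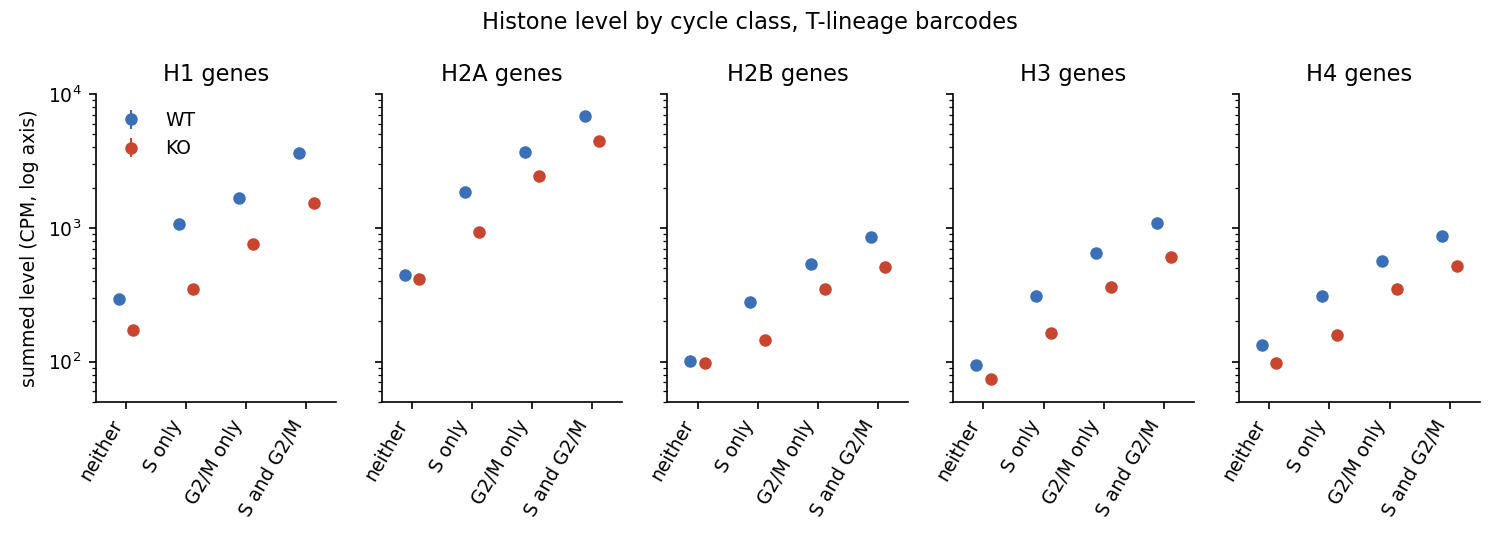
Summed level (CPM, log axis) of the H1, H2A, H2B, H3 and H4 genes in T-lineage barcodes of each cycle class, with WT in blue and KO in red and 95% Poisson intervals that are mostly smaller than the points. KO lies below WT in every panel and class, by least for H2A and H2B genes in the class with neither list.

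The KO level was lower within each cycle class. Only S only and the class with both lists were also taken without clusters 3, 6, 9 and 17. The KO to WT ratio was 0.802 (0.788 to 0.816) in the class with neither list, 0.455 (0.441 to 0.470) in S only, 0.572 (0.566 to 0.579) in the class with both lists (0.614 without clusters 3, 6, 9 and 17) and 0.598 (0.591 to 0.604) in G2/M only. The S list itself, summed in the same barcodes, had a ratio of 0.991 in S only and 0.982 in the class with both lists, where a minimum of that list defined the class, 1.17 (1.15 to 1.18) in the class with neither list and 0.872 in G2/M only. The G2/M list had ratios of 0.823, 0.972, 1.01 and 0.924 in the same order. The H1 sum, of which Hist1h1b was a large part, was again lowest. It went from 3602 CPM in WT to 1535 CPM in KO in the class with both lists (0.426), and from 1072 to 348 CPM in S only (0.325). In the class with neither list, H2B genes stood at 101 CPM in WT and 97.7 CPM in KO, a ratio whose interval spanned 1 (0.917 to 1.02).

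A finer scale gave the same order. At 0 UMIs of the S list per 1000, histone genes were at 1347 CPM in WT and 921 CPM in KO. At 3 they were at 5469 and 3099 CPM, at 6 at 10479 and 5866 CPM, and at 10 or more at 12529 and 6683 CPM. The WT level lay above the KO level at every count of either list, with no overlap of the counting intervals.

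**Figure D2:**
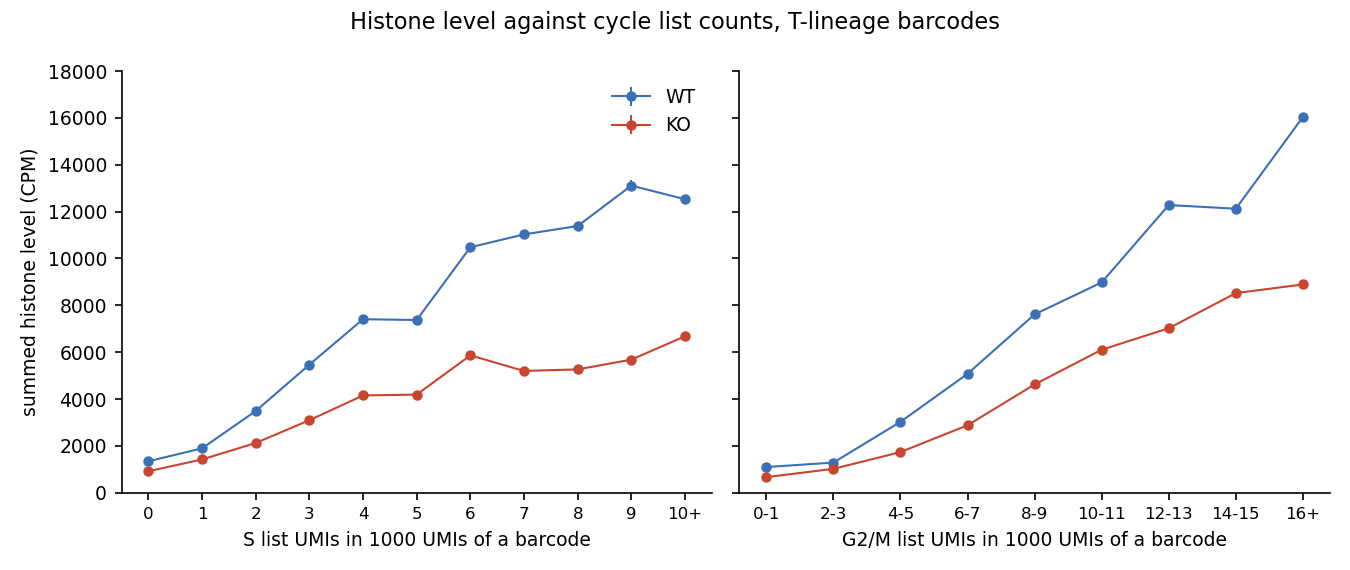
Summed histone level (CPM) of T-lineage barcodes against the UMIs of the S list (left) and G2/M list (right) in 1000 UMIs, with WT in blue, KO in red and 95% Poisson intervals. At 10 or more S list UMIs WT is at 12529 CPM and KO at 6683 CPM, and at 16 or more G2/M list UMIs they reach 16039 and 8893 CPM.

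Depth moved with genotype, so the ratio was also taken between barcodes of like depth. In the class with both lists it was 0.505 at 1000 to 3000 UMIs, 0.706 at 3000 to 10000 UMIs and 0.564 above 10000 UMIs. In S only it was 0.621, 0.574 and 0.481 in these bins, the first of which held 15 WT barcodes, and in the class with neither list 0.734, 0.655 and 0.937. G2/M only was the exception, with 0.714, 1.20 and 0.704, the middle bin being 3217 CPM in 499 WT barcodes and 3850 CPM in 822 KO barcodes. The part of depth in the remaining differences was not tested.

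Of the 67 members, 52 had at least 200 UMIs over both libraries in T-lineage barcodes, and the other 15 had between 0 and 199. With 1 library a genotype a member was counted as lower or higher when its CPM differed by at least 1.5-fold. By that measure 31 of the 52 were lower in KO, against 9.26% of all genes with as many UMIs, and 1 was higher, against 4.21%. The median ratio of the 52 was 0.609 and that of all genes 0.959. Lower were 4 of 5 H1, 7 of 13 H2A, 10 of 15 H2B, 6 of 9 H3 and 4 of 10 H4 genes. In the class with both lists, 27 of the 41 members with enough UMIs were lower (6.01% of all genes) and 1 was higher (5.7%). In the class with neither list, 10 of 35 were lower (9.51%) and 2 were higher (3.16%). That class is set by fewer than 5 UMIs of each list and need not be free of cycling barcodes. The 2 higher members were Hist1h3a, at 9.07 CPM in WT and 16.4 CPM in KO, and Hist1h2ag, at 4.29 and 6.73 CPM.

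**Figure D3:**
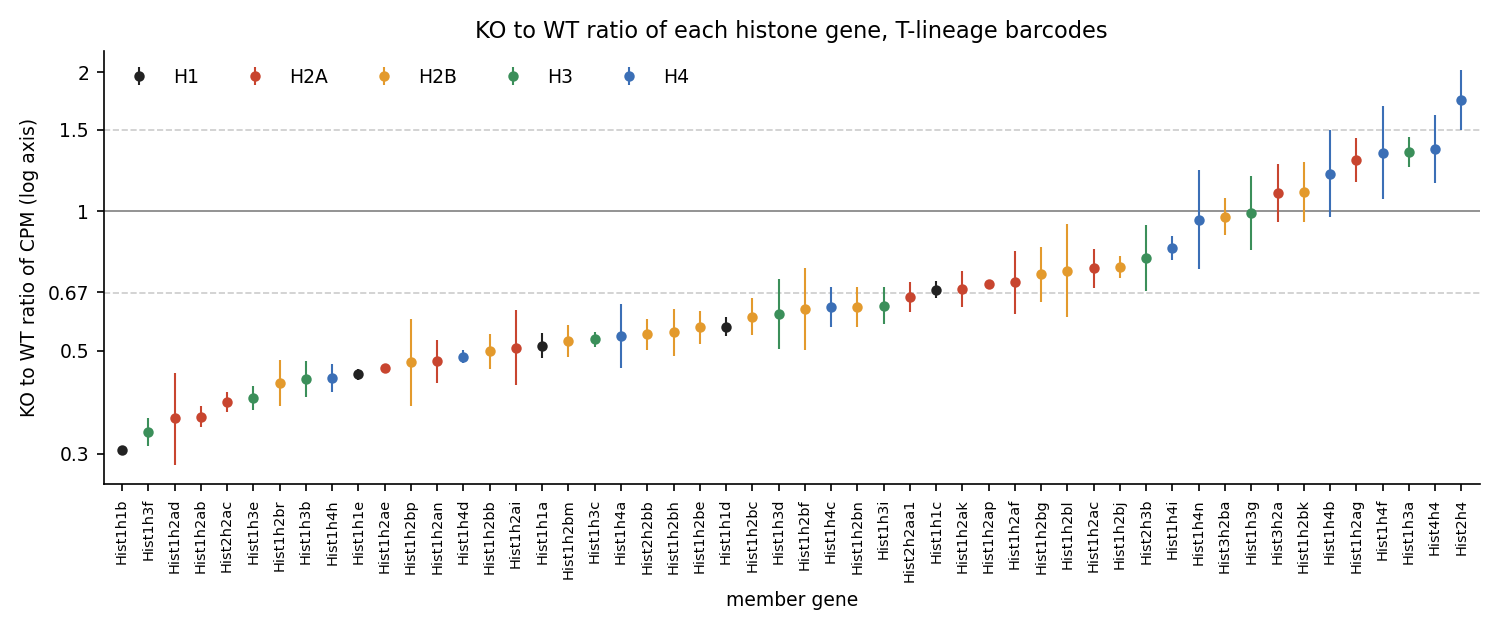
KO to WT ratio of CPM (log axis) in T-lineage barcodes for the 52 members with at least 200 UMIs, sorted and coloured by class, with 95% exact conditional binomial intervals and dashed lines at 1.5-fold. The ratios run from 0.305 for Hist1h1b to 1.74 for Hist2h4.

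The linker genes differed by gene. Hist1h1b, which RefSeq calls H1f5, had the lowest ratio of the 52 members, at 627 CPM in WT and 191 CPM in KO (0.305; 0.298 to 0.312). In S only it stood at 631 CPM in WT and 142 CPM in KO, and in the class with both lists at 2101 and 717 CPM, so that the libraries stayed apart within the cycle. Hist1h1e was at 306 and 136 CPM (0.445), Hist1h1a at 57.3 and 29.5 CPM (0.514) and Hist1h1d at 97.8 and 55.2 CPM (0.564). Hist1h1c had 102 CPM in WT and 69.3 CPM in KO (0.679), which did not reach 1.5-fold. Hist1h1t, the testis linker histone, had 8 UMIs in WT and 0 in KO and is given no ratio.

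Hist1h2ap held the most UMIs of any member and was at 1403 CPM in WT and 978 CPM in KO (0.697; 0.689 to 0.705). It did not reach 1.5-fold, and without it the summed ratio of the other 66 members was 0.486. Its level was 240 CPM in WT and 261 CPM in KO in the class with neither list, and 4219 and 3174 CPM in the class with both. Hist1h2ae was at 545 and 250 CPM (0.459), Hist2h2ac at 110 and 42.6 CPM (0.388), Hist1h2ab at 102 and 36.9 CPM (0.360) and Hist2h2aa1 at 35.5 and 23.2 CPM (0.653). Hist1h2ad was also among the 5 lowest ratios, with 5.86 CPM in WT and 2.10 CPM in KO (0.358). The H2A class also held 2 genes above 1. Hist1h2ag was at 11.8 CPM in WT and 15.2 CPM in KO (1.29; 1.16 to 1.44), and Hist3h2a at 7.34 and 8.05 CPM with an interval that spanned 1 (0.95 to 1.27).

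Among the H2B genes with most UMIs, Hist1h2bj was at 61.6 CPM in WT and 46.7 CPM in KO (0.759) and Hist2h2bb at 38.7 and 21.0 CPM (0.543). Hist1h2bm was at 36.4 and 19.2 CPM (0.526), Hist1h2be at 31.9 and 18.0 CPM (0.562) and Hist1h2bb at 30.6 and 15.3 CPM (0.499). Hist3h2ba had nearly equal levels, 19.4 CPM in WT and 18.9 CPM in KO, with an interval of the ratio from 0.890 to 1.07. The germline genes Hist1h2ba and Hist1h2aa had 1 UMI each over both libraries. Hist1h2bq had 0 UMIs in either library, which allows up to 3 UMIs a library.

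H3 and H4 genes covered most of the range, including its upper end. Hist1h3c was at 160 CPM in WT and 84.7 CPM in KO (0.530), Hist1h3e at 72.9 and 28.9 CPM (0.396), Hist1h3f at 60.5 and 20.2 CPM (0.334) and Hist1h3b at 31.3 and 13.6 CPM (0.434). Hist1h3a went the other way, from 24.5 CPM in WT to 32.9 CPM in KO (1.34; 1.25 to 1.45). Hist1h4d was at 212 and 103 CPM (0.486), Hist1h4h at 50.9 and 22.3 CPM (0.438), Hist1h4c at 19.97 and 12.4 CPM (0.622) and Hist1h4i at 45.3 and 37.8 CPM (0.834). Hist2h4 was the 1 member counted as higher, at 5.80 CPM in WT and 10.1 CPM in KO (1.74; 1.5 to 2.02). Cycling barcodes of the class with both lists had 10.4 and 21.0 CPM of it (2.03; 1.52 to 2.73). Hist4h4, at 4.85 and 6.61 CPM (1.36), and Hist1h4f, at 2.68 and 3.59 CPM (1.34), were above 1 without reaching 1.5-fold.

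Members differed widely in how far they rose in cycling barcodes. For both lists over neither, 36 of the 38 members with at least 200 UMIs in these classes were at least 1.5-fold higher in WT, where 12.3% of all genes were, and 35 of 37 were in KO, where 11.4% were. A gene that is low in the class with neither list could pass this UMI limit only through its level in the other class. These counts are therefore no measure of all 67 members. Hist1h1b rose 21.8-fold in WT and 14.5-fold in KO, Hist1h1a 18.9-fold and 10.4-fold, Hist1h2an 22.7-fold and 9.22-fold, and Hist1h2ap 17.6-fold and 12.2-fold. By the geometric mean of the 2 libraries, the smallest S-only folds were those of Hist3h2a, Hist3h2ba, Hist1h2ac, Hist4h4 and Hist1h1c. The order differed by library: in WT Hist2h4 (0.85) lay below Hist1h2ac (1.04) and Hist1h1c (1.07), and in KO Hist1h2bf (0.516) and Hist1h2bp (0.693) lay below Hist1h1c (0.937) and Hist4h4 (1.24). Hist3h2a was lower in the class with both lists than in the class with neither, at 5.11 against 7.82 CPM in WT and 5.64 against 8.65 CPM in KO (both 0.65-fold). Hist3h2ba was at 19.4 against 18.0 CPM in WT and 20.01 against 16.8 CPM in KO. Hist4h4 rose 2.27-fold in WT and 1.64-fold in KO, Hist1h2ac 3.37-fold and 2.02-fold, and Hist1h1c 4.14-fold and 4.28-fold.

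**Figure D4:**
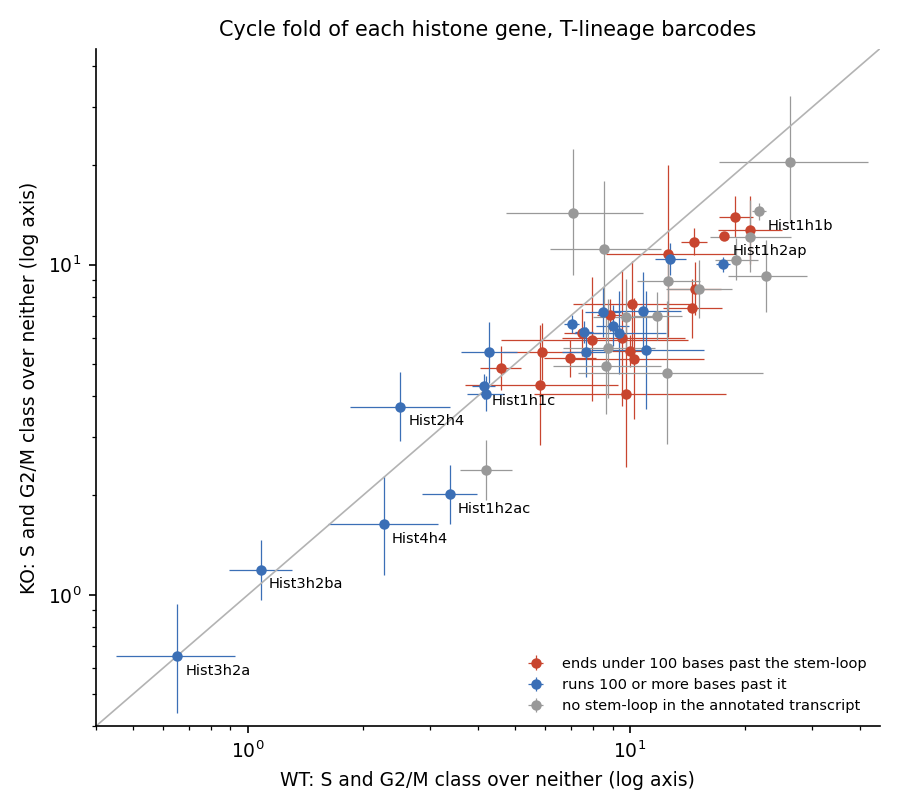
Fold of the class with both lists over the class with neither for each of 52 members with at least 200 UMIs in barcodes of at least 1000 UMIs, WT against KO (log axes), with 95% intervals and colours for how far the annotated transcript runs past the stem-loop. In 45 of the 52 members the KO fold lies below the WT fold, and Hist3h2a lies at 0.65 and Hist3h2ba near 1 in both. The same share over all genes was not taken. A lower KO fold is not particular to the members, since the median fold of the S list genes was 6.18 in WT and 5.00 in KO. The median of all genes with enough UMIs was 0.906 in WT and 0.965 in KO.

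Each of the 5 members with the smallest mean S-only fold has an annotated transcript that runs at least 100 bases past the stem-loop, by 1643 bases in Hist3h2a, 169 in Hist3h2ba, 2010 in Hist1h2ac, 2445 in Hist4h4 and 840 in Hist1h1c. Hist1h2bf and Hist1h2bp, which were low in KO, end 29 and 38 bases past it. Summed over the 22 members with such a transcript, the class with both lists was 8.65-fold above neither in WT and 6.35-fold in KO. Over the 22 whose transcript ends under 100 bases past the loop it was 14.8-fold and 10.6-fold, and over the 23 without a loop in the annotated transcript 17.8-fold and 10.6-fold. The KO to WT ratio of these sums was 0.512 (0.506 to 0.519), 0.649 (0.643 to 0.655) and 0.390 (0.383 to 0.396). Few members carry each sum, Hist1h2ap alone holding most of the second, and the annotated end need not be the end used in these cells.

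By locus, the summed ratio was 0.548 (0.544 to 0.552) for the 54 genes of chromosome 13 and 0.529 (0.512 to 0.547) for the 10 of chromosome 3. The 2 genes of chromosome 11, Hist3h2a and Hist3h2ba, came to 26.7 CPM in WT and 27.0 CPM in KO (1.01; 0.934 to 1.09), and Hist4h4 is the only gene of its locus. Near-identical coding sequences limit what can be said of single members. Of all stretches of 91 bases, 61 members shared at least 1 with another gene's transcript, including 92.3% of the stretches of Hist1h2ap, 31.8% of Hist1h2ae and 76.7% of Hist1h2ag, and reads that fit several genes are left uncounted by Cell Ranger. Hist1h1b shared none, and the 6 members without a shared stretch had a summed ratio of 0.336 against 0.589 for the other 61. Hist1h1b carried that value, since the remaining 5 had a summed ratio of 0.635 (0.601 to 0.671). Hist3h2a overlaps Trim17 and Hist1h1e overlaps Hist1h2be in the annotation, and 9 members overlap another gene in all, so their counts are less certain.

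Many H2A genes stand head to head with an H2B gene. There were 13 such divergent pairs of members with starts 176 to 660 bases apart, 12 of an H2A and an H2B gene and 1 of Hist1h2bh and Hist1h3f. In 9 pairs both genes had at least 200 UMIs, and in 8 of these both ratios were below 1. Of all 52 members with that many UMIs 44 were below 1, so this count says little about the pairing. Hist1h2an and Hist1h2bp had the same ratio within counting error (0.475 and 0.473), whereas in 6 of the 9 the intervals of the partners did not overlap. Hist1h2ap was at 0.697 and its partner Hist1h2br at 0.427. Hist1h2ae was at 0.459 and Hist1h2bg at 0.732. In the pair of Hist1h2ag and Hist1h2bj the first was above 1 (1.29) and the second below it (0.759).

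The lower KO level was seen in nearly every cluster. Cluster 8, a cycling T-lineage cluster with similar median depth in both libraries (8876 UMIs in WT and 8197 in KO), held 205 WT and 970 KO barcodes and stood at 14348 CPM in WT and 8143 CPM in KO (0.568; 0.560 to 0.575). Its S list ratio was 0.897 and its G2/M list ratio 0.928. Within it Hist1h1b had a ratio of 0.352 and Hist1h2ap of 0.713. Cluster 10, cycling barcodes with Gzmb, Gzma and Klrg1, was at 11204 CPM in 748 WT and 6093 CPM in 52 KO barcodes (0.544; 0.527 to 0.561), at an S list ratio of 0.984. In cluster 1, the largest, led by Ly6c1, Dapl1 and Bcl2, the level was 1109 CPM in WT and 716 CPM in KO (0.646; 0.631 to 0.662). Cluster 5, with Klrg1, Cxcr3 and Ccr2, was at 1092 CPM in 2125 WT barcodes and 555 CPM in 67 KO barcodes (0.508; 0.450 to 0.572).

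Cluster 7, led by Lad1, Bcat1, Phlda3 and Nefh, was the exception among T-lineage clusters. It held 442 WT and 1150 KO barcodes and stood at 1529 CPM in WT and 1611 CPM in KO (1.05; 1.02 to 1.08). Its S list ratio was 1.23 and its G2/M list ratio 1.26, and 25.6% of its WT and 37.1% of its KO barcodes were in 1 of the 3 cycling classes. Hist1h1b was still lower in its KO barcodes, with a ratio of 0.601, and so was Hist2h2ac, with 0.583, whereas Hist1h2ap was at 1.32 and Hist1h3a at 1.95. The H1 class had a ratio of 0.809 (0.762 to 0.858) there, carried by Hist1h1b and by Hist1h1e, at 0.808 (0.727 to 0.898). The other H1 genes with enough UMIs lay above 1. Hist1h1a had a ratio of 1.62 (1.23 to 2.17), Hist1h1d of 1.34 (1.08 to 1.69) and Hist1h1c of 1.28 (1.05 to 1.56).

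**Figure D5:**
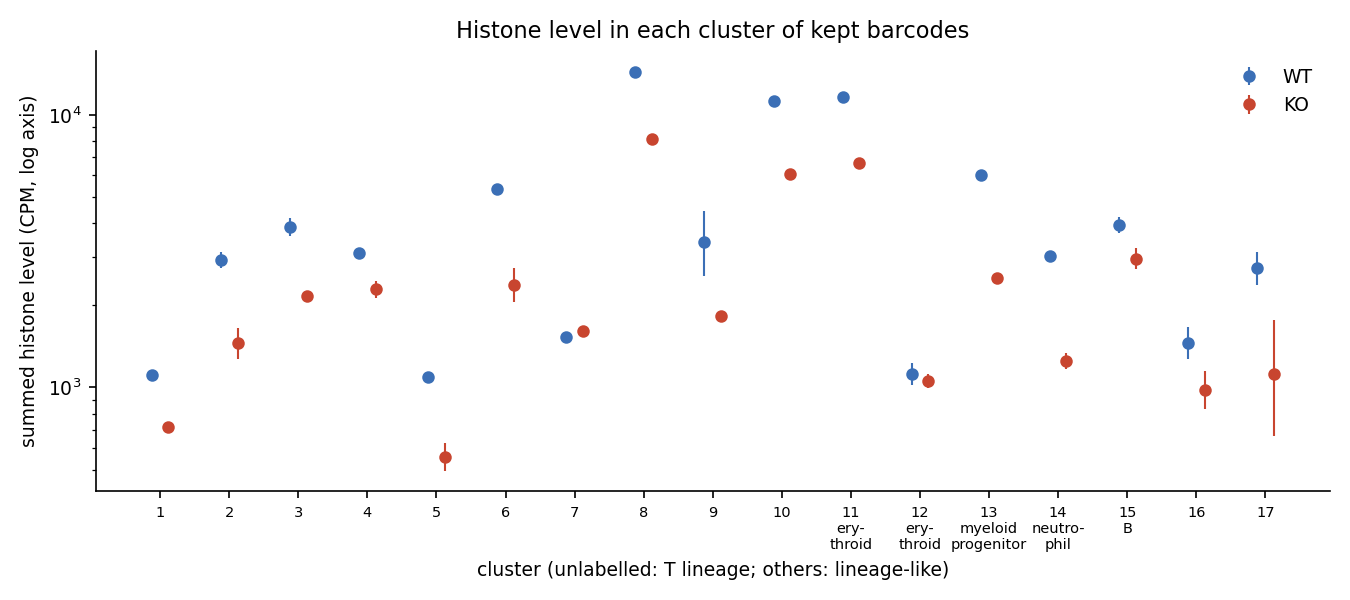
Summed histone level (CPM, log axis) in each of the 17 clusters of kept barcodes, WT in blue and KO in red, with 95% Poisson intervals; clusters 11 to 15 are not T lineage. KO lies below WT in all but cluster 7, at 1529 and 1611 CPM, and cluster 12, where the intervals meet.

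The barcodes outside the T lineage, few in number, gave lower KO values in most sums too. Summed over these lineages the histone level was 7327 CPM in WT and 3471 CPM in KO (0.474; 0.466 to 0.482), with an H1 ratio of 0.389 and an S list ratio of 0.772. Of 34 members with at least 200 UMIs there, 29 were lower by 1.5-fold, against 5.35% of all genes, and 0 were higher, against 3.41%. Within cycle classes their ratio was 0.606 with neither list, 0.711 in S only, 0.502 with both lists and 0.574 in G2/M only. The S-only value came from 18 WT and 47 KO barcodes, with median depths of 24522.5 and 2834 UMIs. The erythroid-like barcodes of cluster 11 were at 11678 and 6656 CPM (0.570; 0.558 to 0.582), with an S list ratio of 0.778, but 68.8% of them in WT and 22.4% in KO were in the class with both lists. In that class their ratio was 0.630 at an S list ratio of 0.970, in G2/M only it was 0.836, and in S only it was 1.33 (1.14 to 1.56), from 5 WT and 27 KO barcodes. Myeloid progenitor-like barcodes, of similar depth in both libraries (14985 and 12884 UMIs), were at 6040 and 2528 CPM (0.419; 0.405 to 0.433), with an S list ratio of 0.911. Neutrophil-like barcodes were at 3032 and 1251 CPM (0.413), but at 642 and 829 CPM (1.29; 1.10 to 1.52) in the class with neither list, and B lineage-like ones at 3949 and 2972 CPM (0.753), the latter with an S list ratio of 1.31. The haemoglobin-rich erythroid-like cluster 12 was at 1119 and 1060 CPM, with an interval of the ratio that spanned 1 (0.848 to 1.06). With 1 library a genotype, the difference between T-lineage and other barcodes has no test.

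For each other lineage, the member most above its own T-lineage level is given. That lineage need not be where the member stood highest. Hist1h1a was at 319 CPM in WT and 115 CPM in KO in erythroid-like barcodes, against 57.3 and 29.5 CPM in the T lineage. Hist3h2a was at 37.6 and 29.1 CPM in B lineage-like barcodes, against 7.34 and 8.05 CPM in the T lineage. It was picked as the member most above the T lineage there. The B lineage-like barcodes, 46 in WT and 48 in KO, held 212724 and 171958 UMIs of all genes, so these levels rest on few UMIs. Hist1h3d was at 18.9 and 14.1 CPM in myeloid progenitor-like barcodes, against 6.97 and 4.19 CPM, and Hist1h2bc at 37.2 and 37.6 CPM in neutrophil-like ones, against 25.4 and 15.1 CPM. Hist1h2bc was higher still in erythroid-like cluster 11, at 64.9 and 50.4 CPM. The myeloid progenitor-like barcodes held 1955018 and 1985441 UMIs of all genes and the neutrophil-like ones 915200 and 612079, so these levels rest on few UMIs too.

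Related genes differed less between the libraries in T-lineage barcodes. The 11 replication-independent variants, which cells put into chromatin outside S phase or at special sites, summed to 6819 CPM in WT and 6878 CPM in KO (1.01; 1.00 to 1.01). H2afz, at 2558 and 2463 CPM, H3f3b, at 1669 and 1768 CPM, and H3f3a, at 1081 and 1107 CPM, stayed within 1.5-fold. Of the 10 with at least 200 UMIs, 1 was lower, H1f0, the linker variant of resting cells, at 92.2 and 55.5 CPM (0.602; 0.574 to 0.631), and 1 was higher, H1fx, at 2.52 and 5.61 CPM (2.23). H2afx, whose product marks broken DNA when phosphorylated, was at 152 and 191 CPM (1.26).

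The genes that switch on and process histone mRNA showed smaller differences. None of the 11 with at least 200 UMIs was past 1.5-fold in T-lineage barcodes, and their ratios ran from 0.747 to 1.10. The lowest was Npat, the S phase coactivator of histone genes, at 13.6 CPM in WT and 10.2 CPM in KO (0.747; 0.665 to 0.839). Within the class with both lists Npat was at 22.3 and 14.5 CPM (0.652; 0.497 to 0.851) and was the 1 gene of the list past 1.5-fold. Slbp was at 130 and 128 CPM (0.987), Casp8ap2 at 74.5 and 67.9 CPM (0.912), Lsm10 at 32.2 and 24.5 CPM (0.760) and Lsm11 at 22.2 and 20.3 CPM (0.917). Of the 15 histone chaperones, which carry new histones to DNA, 0 were past 1.5-fold. Their ratios ran from 0.878 for Supt16 to 1.22 for Asf1a, with Nasp at 196 and 201 CPM, Asf1b at 62.4 and 64.1 CPM and Chaf1a at 35.4 and 35.2 CPM. Of the S list, 1 of 42 genes was lower, Usp1, at 90.1 and 58.6 CPM (0.650), and 0 were higher, and of the G2/M list 0 of 44 were lower and 2 were higher, Gtse1, at 5.16 and 8.17 CPM, and Psrc1, at 3.63 and 11.96 CPM.

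The share of barcodes with any histone UMI was less informative. Thinned to 1000 UMIs, 71.1% of 6429 WT and 66.8% of 11719 KO T-lineage barcodes held one, a difference of -4.34 percentage points (-5.74 to -2.94, Newcombe), and unthinned the shares were 98.5% and 92.5%. Without clusters 3, 6, 9 and 17 the thinned difference was -13.6 points. For barcodes with neither list it was -9.13 points, from 65.9% to 56.7%. Neutrophil-like barcodes, of which 34.1% in WT and 32.1% in KO were in a cycling class, held one in 57.1% of 91 WT and 54.8% of 84 KO barcodes at the same thinned depth (46.3% to 67.5% and 43.5% to 65.7%), with unthinned medians of 9193 and 5312 UMIs. They are thus no background free of dividing cells, and their intervals are too wide to set one for the T lineage.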

How the data were processed

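The authors deposited, for each library, raw UMI counts per gene and barcode, made with Cell Ranger 5.0.1 on mm10 per the submitters' processing notes, and the counts were used as deposited. As in the study's methods, barcodes under 300 genes or over 5% mitochondrial share were dropped. The study also removed doublets. Here doublets were handled only as an alternative, leaving out the highest Scrublet scores (5% of WT and 8% of KO barcodes). Barcodes were clustered (scanpy 1.11.5, 2000 variable genes, 30 components, 20 neighbours, resolution 0.8) without the members and cycle lists. A cluster was T lineage where its T marker level was at least 50% of that in all kept barcodes, and other names came from marker lists.

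Levels are summed UMIs as CPM. Intervals are 95%: exact Poisson for sums, exact conditional binomial for ratios and Newcombe for differences of shares (scipy 1.17.1). They cover counting error only. The 1 library per genotype allows no test. A gene was counted as higher or lower at 1.5-fold with at least 200 UMIs over both sides. Motifs were searched in RefSeq promoters. Stem-loops and positions came from GENCODE vM21.

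Members named are the 5 with most UMIs in each class, the 5 highest and 5 lowest KO to WT ratios, the 5 highest and 5 lowest S-only folds by the geometric mean of the libraries, the member most above the T lineage in each other lineage, and the fixed lists. Other members were named after their values were seen. The members and lists were chosen with earlier results of these data known. The class with both lists, the depth bins, the groups by transcript end, locus, shared sequence and partner, the cluster examples and the runs without clusters 3, 6, 9 and 17 were added after seeing the data.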

Additional observations from a re-analysis of the deposited data

Results flagged for a closer look

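T-lineage cluster 7 had a KO to WT ratio of summed histone CPM of 1.05 (1.02 to 1.08), where the other T-lineage clusters lay below 1. Its S list ratio was 1.23 and its G2/M list ratio 1.26. The difference between clusters was not tested, since each genotype has 1 library.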

How the results depend on the processing

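Of 83 alternative values, 41 moved by less than the counting interval or within 1.5 times for counts, 42 moved further and 0 reversed. The KO to WT ratio over all kept barcodes was 0.566 without the mitochondrial filter, 0.554 without clusters 3, 6, 9 and 17 and 0.604 as the mean of single-barcode CPM, and in the T lineage 0.581, 0.568 and 0.620. In S only it was 0.441 without those clusters, 0.540 as the mean, 0.547 at a limit of 3 list UMIs and 0.399 at 8. The S-only fold in WT was 2.91 without the mitochondrial filter, 2.62 as the mean, 1.70 at a limit of 3 and 4.69 at 8. In KO it was 1.87, 1.62, 1.29 and 2.59, and 2.27 without those clusters. For the class with both lists the KO to WT ratio ran from 0.483 (mean) to 0.617 (limit of 8), and its fold over neither from 10.0 (no mitochondrial filter) to 12.7 (without doublets) in WT and from 6.04 (mean) to 10.95 (without those clusters) in KO. Members counted as higher in KO were 2 without the mitochondrial filter and 3 by the mean. The thinned share difference was -6.58 points at 500 UMIs, -8.16 at 2000, -6.05 without thinning, -9.92 without the mitochondrial filter and -13.6 without those clusters. The causes of these shifts were not tested. No paired analysis was possible because each genotype has 1 library, and for the same reason no library could be left out.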
